A study of Mus musculus with 4 samples.

Results

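Sox18, Sox17 and Sox7 are the 3 genes of the SoxF group of transcription factors, and Angpt1, Angpt2, Angpt4, Tek, Tie1 and Ptprb make up the angiopoietin-Tie axis. These 9 genes, of 55573 in the files, were followed across 4 RNA sequencing libraries of primary mouse embryonic fibroblasts (MEFs), cells taken from embryos and grown in culture without being made into a line. The set was selected on measured values of the same libraries: Sox18 and Angpt4 had been seen to be low in both libraries with lowered Dyrk2. Their levels in the knockout and siDyrk2 comparisons are therefore a description, and no difference was tested. The other 7 genes were added as relatives or partners of those 2.

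The groups were Dyrk2-KO cells, wild-type (WT) cells, WT cells given siDyrk2 and WT cells given siNegative (siNeg), with 1 library each. Every culture, controls included, had 100 nM SAG for 24 h. SAG is an agonist of Smoothened, the membrane protein that passes on the Hedgehog signal, so no library here comes from cells without the agonist. The labels do not give the number of embryos behind a culture, how the Dyrk2 allele was disrupted, or the sequence of either siRNA. The study concerns how the kinase DYRK2 acts on Hedgehog signalling, and the comparisons are knockout against wild type, siDyrk2 against siNeg, and siNeg against wild type.

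Levels are given in FPKM, which divides a gene's fragments by its exonic length and by the depth of the library, so that levels of genes of different length can be set side by side. Depth was 21.9 M fragments (M, 1e+06) in the knockout, 23.9 M in wild type, 21.5 M with siDyrk2 and 20 M with siNeg, as estimated from the steps in which FPKM moves. The same steps gave the number of fragments behind each member's level. Intervals are 95% counting intervals on those fragments, and they cover neither differences between cultures nor library preparation. Dyrk2 was at 0.57 FPKM in the knockout against 6.59 in wild type, and at 0.81 with siDyrk2 against 7.06 with siNeg. The Hedgehog effector gene Gli1 was at 0.24 FPKM in the knockout against 28.81 in wild type, and at 2.25 with siDyrk2 against 30.17 with siNeg. The Y-linked gene Ddx3y was at 8.28 FPKM in the knockout and at 0.02 or less in the other libraries, so the knockout culture held male cells and the others next to none, and genotype and embryo cannot be told apart in the knockout comparison.

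SoxF factors bind DNA through an HMG domain and are best known from blood and lymphatic endothelium, where Sox18 acts in the step that specifies lymphatic cells and overlaps in function with Sox7 and Sox17. Angiopoietins are secreted ligands of the receptor tyrosine kinase TEK, also called TIE2. Angpt1, made by mural and mesenchymal cells, activates the receptor, and Angpt2 can block or activate it depending on context. TIE1 is a related receptor with no ligand of the same kind that forms complexes with TEK, and PTPRB, also called VE-PTP, is a phosphatase that removes phosphate from TEK. In mouse tissue, Hedgehog ligands are known to raise angiopoietin and Vegf transcripts in mesenchymal cells.

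Sox18 and Angpt4 were low with either way of lowering Dyrk2. Angpt1 and Tek were lowest with siDyrk2, Angpt2 was highest in wild type, and Ptprb was highest with siDyrk2. Sox7 had few fragments, and Sox17 and Tie1 had none. Of the 9 members 6 reached 1 FPKM in 1 or more libraries and 3, Sox17, Sox7 and Tie1, did not. A gene was counted as different where FPKM + 1 differed at least 2-fold. In the knockout 2 of the 6, Sox18 and Angpt4, were lower than in wild type by that measure and 0 were higher, while 1.21% of all 12817 measured genes were lower and 0.57% higher. With siDyrk2 3 of the 6, Sox18, Angpt4 and Angpt1, were lower than with siNeg and 0 were higher, while 0.796% of all genes were lower and 0.749% higher. Since these contrasts chose Sox18 and Angpt4, nothing is read from either count. Between both controls, siNeg and wild type, 0 of the 6 differed by that measure, against 0.928% of all genes.

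**Figure D1:**
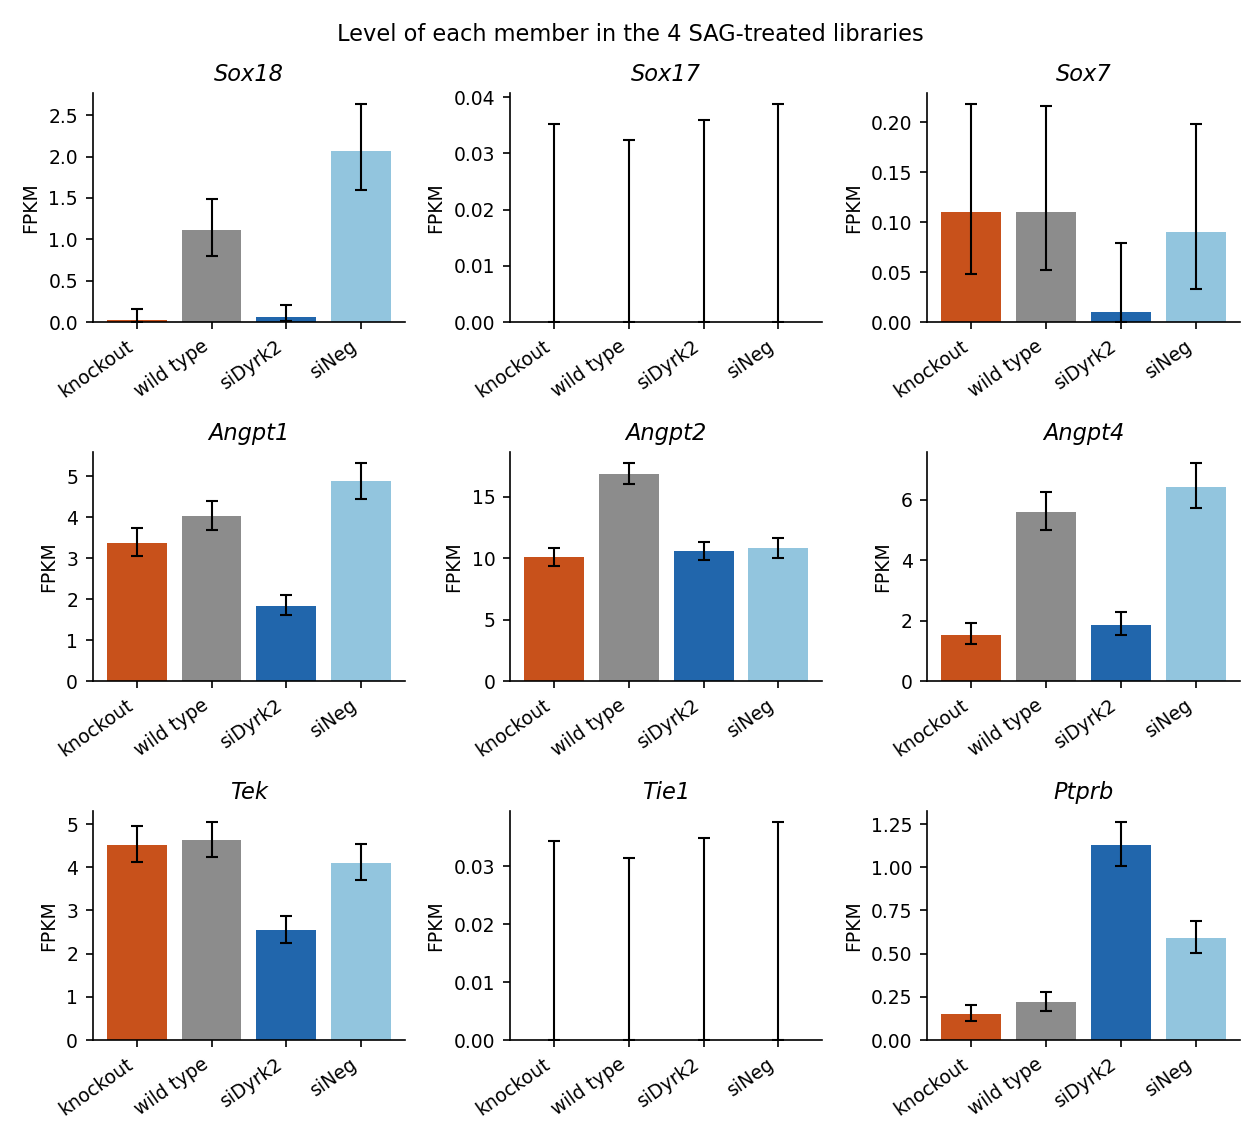
Level of each of the 9 members, in FPKM on linear axes that start at 0, in the knockout, wild-type, siDyrk2 and siNeg libraries. Bars are the single library of each group and whiskers its 95% counting interval. Sox18 and Angpt4 are low in the knockout and siDyrk2 libraries, Angpt1 and Tek are lowest with siDyrk2, Angpt2 is highest in wild type, Ptprb is highest with siDyrk2, and Sox17 and Tie1 have no fragments.

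Sox18 was close to the limit of detection in both libraries with lowered Dyrk2. The gene (ENSMUSG00000046470) lies on chromosome 2 at 181669836 to 181671640 on the minus strand (GRCm38), and its exonic length is 1620 bases. It had 0.03 FPKM in the knockout, which is 1 fragment, against 1.11 FPKM, or 43 fragments, in wild type. It had 0.06 FPKM, or 2 fragments, with siDyrk2, against 2.07 FPKM, or 67 fragments, with siNeg. The counting intervals of the low pair did not overlap those of the control pair: the highest bound in the low pair was 0.208 FPKM, with siDyrk2, and the lowest bound in the control pair was 0.803 FPKM, in wild type. Sox18 was chosen for being low in that pair, so the gap describes these libraries and tests nothing.

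Expressed as ratios, Sox18 was 39.3-fold lower in the knockout than in wild type, with a wide interval of 6.69 to 1590 because the knockout held 1 fragment. With siDyrk2 it was 36-fold lower than with siNeg, with an interval of 9.59 to 303. On the log2 scale of FPKM + 1 the differences were -1.03 in the knockout and -1.53 with siDyrk2. Of all measured genes 142 lay lower than Sox18 in the knockout comparison and 23 in the siRNA comparison. Because Sox18 was chosen on these comparisons, its place among all genes is a description only. Even in the controls Sox18 was a weakly expressed gene, and the controls were not alike, with siNeg 1.87-fold higher than wild type (interval 1.25 to 2.8).

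The other SoxF genes were nearly silent in these cells. Sox17 (ENSMUSG00000025902, chromosome 1, 4490931 to 4497354) is a SoxF factor that also acts in endoderm, and it was listed at 0 in all 4 libraries. With its length of 4772 bases, a count of 3 fragments would have been 0.0263 to 0.0315 FPKM. The upper 95% counting bound of its level ran from 0.0323 FPKM in wild type to 0.0387 with siNeg, so levels below that could have gone unseen. Sox7 (ENSMUSG00000063060, chromosome 14, 63943673 to 63950732), a SoxF factor of early endothelial precursors, had 0.11 FPKM in the knockout against 0.11 in wild type, and 0.01 with siDyrk2 against 0.09 with siNeg. These were 8 and 9 fragments, and 1 and 6. Both intervals of the Sox7 ratio, 0.326 to 2.84 in the knockout and 0.00337 to 1.28 with siDyrk2, included equal levels. Most SoxF fragments in both control libraries were thus from Sox18.

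The measured Sox genes outside the SoxF group differed by less than 2-fold on FPKM + 1. Sox11 was lower in the knockout and siDyrk2 comparisons, and Sox4 was higher in the knockout. Of 17 other Sox genes looked up, 4 reached 1 FPKM and 0 of those were 2-fold different on FPKM + 1 in any comparison. Among all measured genes 1.78% were in the knockout comparison, 1.54% in the siDyrk2 comparison and 0.928% between controls. Individual levels of the 4 follow. Sox4, a SoxC factor of progenitor cells, was the highest of these Sox genes at 65.79 FPKM in the knockout against 50.10 in wild type, and at 48.97 with siDyrk2 against 45.82 with siNeg. Sox11, of the same SoxC group, was at 1.02 against 2.67 FPKM in knockout and wild type, and at 1.15 against 2.57 with siDyrk2 and siNeg, which are log2 differences of -0.86 and -0.73. The cartilage factor Sox9 had log2 differences of -0.01 and -0.03 in the knockout and siDyrk2 comparisons, and the SoxC factor Sox12 of -0.02 and -0.20.

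The expressed genes beside Sox18 on the chromosome were near equal between groups. The nearest protein-coding genes with an established name were Prpf6, a splicing factor gene 14176 bases away, and the elongation factor gene Tcea2, 8670 bases away on the other side, followed by Rgs19. Prpf6 had log2 differences of -0.06 in the knockout and -0.10 with siDyrk2, Tcea2 of -0.12 and 0.33, and Rgs19, a regulator of G-protein signalling, of -0.15 and -0.02. The gene model Gm29797, between Prpf6 and Sox18, was barely expressed and lower with lowered Dyrk2, at 0.00 FPKM in the knockout against 0.39 in wild type and 0.06 with siDyrk2 against 0.20 with siNeg.

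Angpt4 was the ligand gene that was low in both libraries with lowered Dyrk2. It encodes the least studied angiopoietin, and lies on chromosome 2 as well, at 151911210 to 151945337 on the plus strand (ENSMUSG00000027460). Its level was 1.53 FPKM in the knockout, against 5.60 in wild type, and 1.87 FPKM with siDyrk2, against 6.43 with siNeg. These levels rest on 78 and 313 fragments in the first pair and on 94 and 300 in the second. The low libraries overlapped each other, with intervals of 1.21 to 1.91 FPKM in the knockout and 1.52 to 2.29 with siDyrk2, and the controls overlapped as well, at 5.72 to 7.2 FPKM with siNeg and 5 to 6.26 in wild type. The gene was chosen for being low in both libraries with lowered Dyrk2, so this grouping was set by the choice. Angpt4 was 3.67-fold lower in the knockout than in wild type (2.85 to 4.76) and 3.43-fold lower with siDyrk2 than with siNeg (2.71 to 4.37). Between both controls its ratio was 1.15, siNeg over wild type, with an interval of 0.976 to 1.35 that includes equal levels.

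The start of Angpt4 is shown because its level differed in the same way with both ways of lowering Dyrk2, and that of Tek for contrast, since its level was near equal in the knockout and wild type. Tek was lower with siDyrk2 than with siNeg, at a ratio of 0.62, so the contrast holds for the knockout comparison only. RefSeq promoter windows on GRCm38.p6, from 250 bases before to 50 bases after the annotated start, were matched for 3 of the 9 members, Angpt4, Tek and Tie1. The Angpt4 window is chr2:151910957-151911256 and the Tek window chr4:94739039-94739338, both on the plus strand. Capitals mark TATAAA in Angpt4, at position -30 from the start, and ATTGTT in Tek, at position -63.
Angpt4: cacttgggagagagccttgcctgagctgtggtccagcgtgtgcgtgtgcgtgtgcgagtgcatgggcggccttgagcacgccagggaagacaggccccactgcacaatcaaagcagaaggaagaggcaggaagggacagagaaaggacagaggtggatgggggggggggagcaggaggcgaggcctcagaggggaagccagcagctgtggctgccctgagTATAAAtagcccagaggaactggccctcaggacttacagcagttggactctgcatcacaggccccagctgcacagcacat
Tek: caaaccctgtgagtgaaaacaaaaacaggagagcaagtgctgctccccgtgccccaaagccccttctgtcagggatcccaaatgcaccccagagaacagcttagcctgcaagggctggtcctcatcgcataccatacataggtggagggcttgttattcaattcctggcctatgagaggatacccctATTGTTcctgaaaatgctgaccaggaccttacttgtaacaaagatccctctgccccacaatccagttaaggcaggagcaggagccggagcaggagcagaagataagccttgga

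Motifs were searched as exact letters on both strands. The motif bound by GLI factors, GACCACCCA, was in 0.253% of 32851 promoter windows of the same length and in none of these 3, and its core CCACCCA was in 9.3% of windows and in none of these 3. A SOX motif, AACAAT, was in 10.7% of windows and, read on the opposite strand, in that of Tek. TATAAA, looked for after the Angpt4 sequence had been seen, was in 13.6% of windows. The Angpt4 window had 61.3% G and C, that of Tek 52% and that of Tie1 60.3%, where the median window had 52.7%.

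Genes flanking Angpt4 were less different or not expressed. Rspo4, which encodes an enhancer of Wnt signalling and ends 36542 bases before it, was listed at 0 in every library, and the proteasome inhibitor gene Psmf1 had log2 differences of 0.09 in the knockout and 0.25 with siDyrk2. On the other side Fam110a was at 4.99 FPKM in the knockout against 6.93 in wild type, and at 4.81 with siDyrk2 against 7.44 with siNeg, or -0.40 and -0.54 on the log2 scale. Slc52a3, a riboflavin transporter gene, stayed at or below 0.34 FPKM.

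Angpt1, the main activating ligand, was 2.64-fold lower with siDyrk2 than with siNeg (2.24 to 3.12) and closer to equal between knockout and wild type. Angpt1 (ENSMUSG00000022309, chromosome 15, 42424723 to 42676977) was at 3.37 FPKM in the knockout against 4.03 in wild type, and at 1.84 with siDyrk2 against 4.87 with siNeg. The ratio of knockout to wild type was 0.837 (0.731 to 0.958), and that of siDyrk2 to siNeg was 0.379 (0.321 to 0.446). The siNeg library was itself 1.21-fold higher than wild type (1.06 to 1.37), a distance of about the same size as that between knockout and wild type. That the siRNA and knockout differences of Angpt1 are unequal was not tested, since each rests on a single pair of libraries.

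Angpt2 was the most abundant angiopoietin per length in all 4 libraries, and it stood out in wild type rather than with lowered Dyrk2. Its gene (ENSMUSG00000031465, chromosome 8, 18690263 to 18741562) is best known from sprouting endothelium. It was at 10.07 FPKM in the knockout against 16.80 in wild type, and at 10.58 with siDyrk2 against 10.78 with siNeg. The knockout was 1.67-fold lower than wild type (1.53 to 1.82), but siNeg was also 1.56-fold lower than wild type (1.43 to 1.7), and siDyrk2 and siNeg differed by a ratio of 0.981 (0.889 to 1.08). The intervals of the knockout, siDyrk2 and siNeg libraries overlapped, between 9.39 and 11.6 FPKM, and that of wild type lay apart at 16 to 17.7. Angpt2 lies inside Mcph1 on the opposite strand, and the sources used here do not say whether strand was used in counting. Mcph1 had 1.49 FPKM in the knockout against 1.67 in wild type, and 1.72 with siDyrk2 against 2.02 with siNeg.

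These differences left each library with another mix of ligand transcripts. Summed over Angpt1, Angpt2 and Angpt4, the level was 14.97 FPKM in the knockout against 26.43 in wild type, and 14.29 with siDyrk2 against 22.08 with siNeg. The share of Angpt4 in that sum was 10.2% in the knockout against 21.2% in wild type, and 13.1% with siDyrk2 against 29.1% with siNeg. Angpt4 was chosen for being low in the knockout and siDyrk2 libraries, so its lower share and part of the lower sums follow from that choice. The sums also differed through unlike genes. Angpt2 was lower in the knockout than in wild type but near equal with siDyrk2 and siNeg, and Angpt1 was lower mainly with siDyrk2. Angpt2 made up 67.3% in the knockout against 63.6% in wild type, and 74% with siDyrk2 against 48.8% with siNeg. The ratio of Angpt2 to Angpt1 was 2.99 in the knockout against 4.17 in wild type, and 5.75 with siDyrk2 against 2.21 with siNeg, so it was lower in the knockout than in wild type and higher with siDyrk2 than with siNeg.

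Of the 2 receptors, Tek was expressed and Tie1 was not seen. Tek (ENSMUSG00000006386, chromosome 4, 94739289 to 94874976) was at 4.52 FPKM in the knockout against 4.63 in wild type, a ratio of 0.977 (0.86 to 1.11). It was at 2.55 FPKM with siDyrk2 against 4.11 with siNeg, a ratio of 0.62 (0.528 to 0.728). The siDyrk2 library was thus the low one, on 258 fragments against 387 to 522 in the others. Tie1 (ENSMUSG00000033191, chromosome 4, 118471191 to 118490061) was listed at 0 in every library, where 3 fragments would have been 0.0255 to 0.0305 FPKM.

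Ptprb was lower in both libraries without siRNA than in both with it. Ptprb (ENSMUSG00000020154, chromosome 10, 116275523 to 116389535) is a long gene of 13333 exonic bases, so its low levels rest on 44 to 323 fragments. It was at 0.15 FPKM in the knockout against 0.22 in wild type, and at 1.13 with siDyrk2 against 0.59 with siNeg. The ratio of knockout to wild type, 0.688, had an interval of 0.461 to 1.02, which includes equal levels, and that of siDyrk2 to siNeg was 1.91 (1.58 to 2.33). The widest ratio was between the controls, with siNeg 2.69-fold higher than wild type (2.01 to 3.61). Ptprb passed the filter of 1 FPKM through the siDyrk2 library alone, and Sox18 through its control libraries alone.

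**Figure D2:**
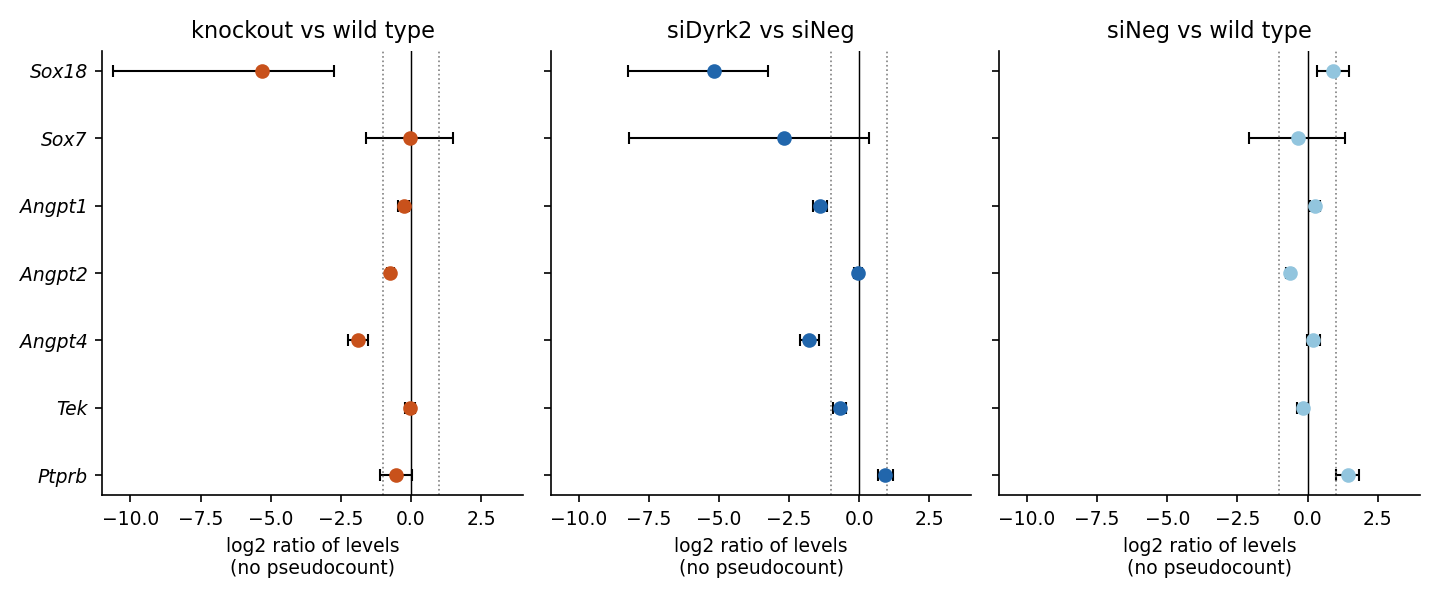
Log2 ratio of levels without a pseudocount for the 7 members with fragments, in knockout over wild type, siDyrk2 over siNeg and siNeg over wild type. Points are ratios of single libraries, whiskers 95% counting intervals, and dotted lines 2-fold. Sox18 and Angpt4 lie left of the lower 2-fold line with their whole intervals in the first 2 panels, and Angpt1 does so in the second panel only. The first 2 panels show the comparisons on which Sox18 and Angpt4 were chosen.

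By direction alone, all 6 measured members were lower in the knockout than in wild type, though Tek by -0.03 on the log2 scale, which came to 0.00 with either other scaling, and 55.6% of all genes were lower. With siDyrk2 5 were lower than with siNeg and 1, Ptprb, was higher, where 45% of all genes were lower and 54.3% higher. Nothing is read from these counts, since they include Sox18 and Angpt4, and since Sox18 and Ptprb were measured through the libraries in which they were high. Between siNeg and wild type 4 were higher and 2, Angpt2 and Tek, lower, where 48.3% of all genes were higher and 51% lower. The siNeg library serves as the control of siDyrk2 and wild type as that of the knockout, so each comparison of controls shares a library with another comparison.

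**Figure D3:**
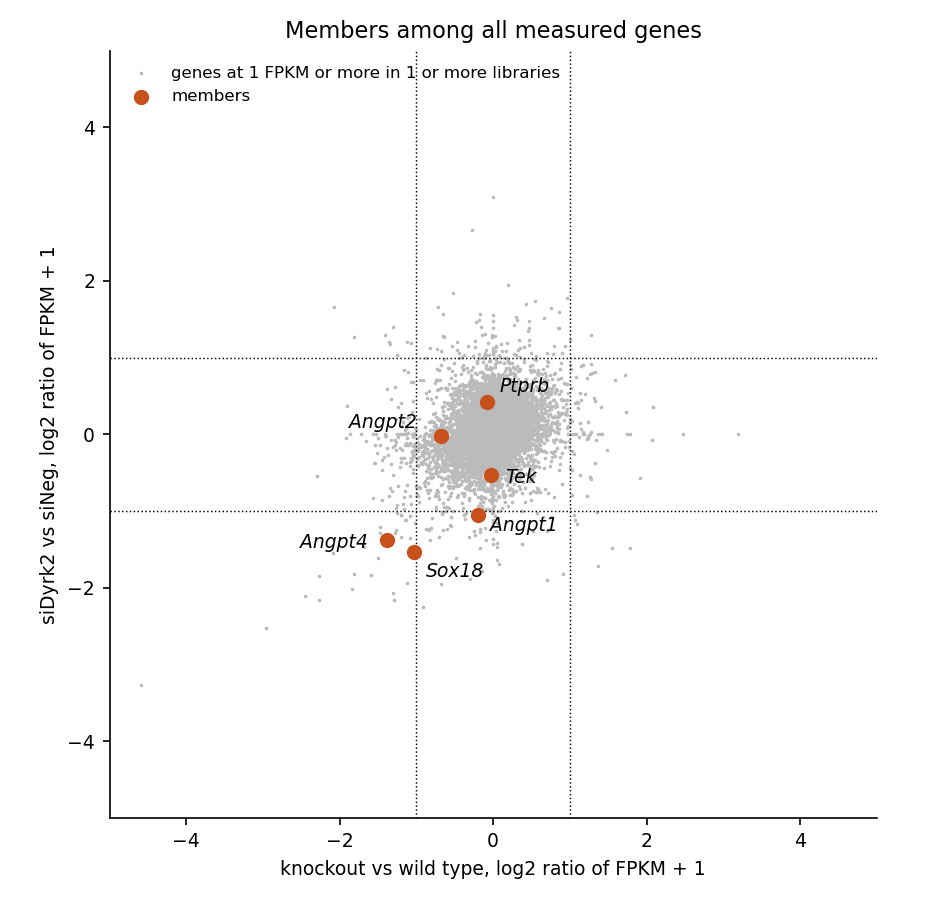
Log2 ratio of FPKM + 1 in knockout over wild type (horizontal) and siDyrk2 over siNeg (vertical) for the 12817 measured genes (grey) and the 6 measured members (orange), with dotted lines at 2-fold. Sox18 and Angpt4 lie in the lower left field, Angpt1 just past the 2-fold line of the siRNA comparison alone, and the other 3 members inside the central field.

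Among measured genes for proteins that act with the TIE receptors, Grb14 alone was at least 2-fold different on FPKM + 1. Of 20 adaptors and regulators, 17 were measured. In the knockout 11 were higher, 6 lower and 1 at least 2-fold lower than in wild type, with a median of 0.05. Of all genes 43.7% were higher there, 55.6% lower and 1.21% at least 2-fold lower. With siDyrk2 10 were higher, 7 lower and 1 at least 2-fold lower than with siNeg, with a median of 0.03. Of all genes 54.3% were higher in that comparison, 45% lower and 0.796% at least 2-fold lower. The gene at least 2-fold lower was Grb14 each time, whose product is an adaptor that binds receptor tyrosine kinases including TEK. Nothing is read about TEK signalling from that 1 gene. It was at 1.01 FPKM in the knockout against 3.79 in wild type, and at 1.35 with siDyrk2 against 3.80 with siNeg. Pik3r1, a regulatory subunit of PI3 kinase, was at 18.56 FPKM in the knockout against 11.52 in wild type, but at 8.99 with siDyrk2 against 9.15 with siNeg. The integrin gene Itgav had log2 differences of -0.15 and -0.46, and Klf2, a factor induced by flow in endothelium, of 0.12 and 0.41. Svep1, which encodes a matrix ligand of TIE1, was at 51.60 FPKM in the knockout against 49.86 in wild type, and at 38.27 with siDyrk2 against 43.91 with siNeg. Its value, unlike those of the others, was picked out after it had been seen, since it was well expressed beside a receptor gene at 0.

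Partners and reported targets of SOX18 were measured in 5 of 12 cases, and 0 of these were 2-fold different on FPKM + 1 in any comparison. Among all measured genes 1.78% were in the knockout comparison, 1.54% in the siDyrk2 comparison and 0.928% between controls. Mef2c, a transcription factor that binds with SOX18, was at 1.69 FPKM in the knockout against 2.02 in wild type, and at 1.03 with siDyrk2 against 2.07 with siNeg. Nr2f2, which works with SOX18 in lymphatic specification, was at 4.55 against 6.97 FPKM in knockout and wild type, and at 5.36 against 8.81 with siDyrk2 and siNeg. The adhesion molecule gene Vcam1 had log2 differences of 0.26 and 0.45, and the netrin receptor gene Unc5b of -0.44 and -0.00. Prox1, the lymphatic gene that SOX18 is known to switch on, stayed at or below 0.06 FPKM.

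The angiopoietin-like genes, relatives of the ligands in sequence that do not bind TEK, had 4 measured members. All 4 were higher in the knockout than in wild type, 1 of them at least 2-fold, with a median log2 difference of 0.62. Of all genes 43.7% were higher there and 0.57% at least 2-fold higher, with a median of -0.02. With siDyrk2 3 of 4 were higher than with siNeg, with a median of 0.45, where 54.3% of all genes were higher and their median was 0.02. Angptl4, an inhibitor of lipoprotein lipase, was at 17.49 FPKM in the knockout against 5.13 in wild type, and at 7.01 with siDyrk2 against 3.90 with siNeg. Angptl2 had log2 differences of 0.62 and 0.60, Angptl1 of 0.62 and -0.20, and Angptl6 of 0.24 and 0.29. All 4 were lower with siNeg than in wild type, by a median of -0.28, where 51% of all genes were lower. The VEGF axis, the other main endothelial growth factor system, had 8 measured genes, with 4 higher and 4 lower in the knockout. With siDyrk2 3 of the 8 were higher and 5 lower, and 0 were at least 2-fold different on FPKM + 1 in either comparison. Of all genes 43.7% were higher in the knockout and 54.3% with siDyrk2, and 1.78% and 1.54% were at least 2-fold different. The VEGF receptor gene Flt1 was at 16.67 FPKM with siDyrk2 against 8.70 with siNeg, and at 6.58 in the knockout against 6.63 in wild type. Vegfa was at 28.16 FPKM in the knockout against 41.59 in wild type, Vegfc at 20.37 against 12.85, and Pgf at 0.83 against 1.91.

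Of 20 endothelial markers 13 stayed under 1 FPKM in the 4 libraries and 7 passed it, and Cldn5 and Mmrn2 had no fragments in any library. Pecam1 was at 0.05 FPKM or less, Cdh5 at 0.18 or less and Kdr at 0.72 or less. Cdh5 had 0.12 FPKM in the knockout against 0.14 in wild type, and 0.01 with siDyrk2 against 0.18 with siNeg, and the endothelial factor Erg had 0.20 in the knockout against 0.55 in wild type, and 0.62 with siDyrk2 against 0.81 with siNeg. Of all genes 43.7% were higher in the knockout and 54.3% with siDyrk2, with medians of -0.02 and 0.02. Of the 7 measured markers 3 were higher and 4 lower in the knockout, with a median of -0.01, and 4 were higher and 3 lower with siDyrk2, with a median of 0.32. They included Cd34, Eng and Flt1, which fibroblasts or mural cells can also express, as well as Clec14a at 1.84 to 2.95 FPKM, Fli1 at 2.01 to 3.32, Ramp2 at 1.20 to 2.24, and Ecscr, at 1.64 FPKM in the knockout against 2.79 in wild type and 5.02 with siDyrk2 against 3.49 with siNeg. The list summed to 75.70 FPKM in the knockout against 55.56 in wild type, and to 62.93 with siDyrk2 against 54.13 with siNeg. Single genes weighed heavily in these sums. Cd34 was at 50.61 FPKM in the knockout against 29.03 in wild type, but at 19.79 with siDyrk2 against 23.32 with siNeg. Flt1 was at 16.67 FPKM with siDyrk2 against 8.70 with siNeg. The sums are therefore no measure of endothelial cells. None of the 6 lymphatic endothelial markers reached 1 FPKM, and they summed to 0.22 to 0.38 FPKM per library.

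**Figure D4:**
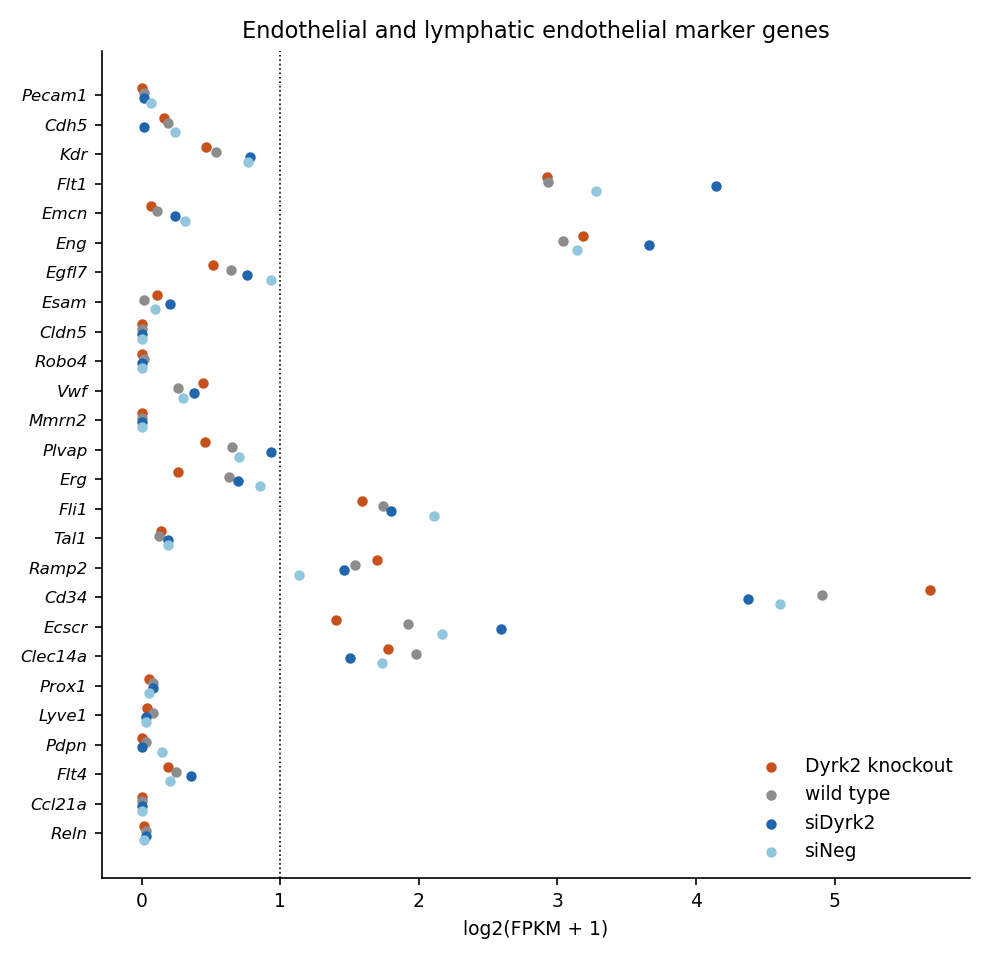
Level of 26 marker genes of endothelium and lymphatic endothelium as log2(FPKM + 1) in the knockout, wild-type, siDyrk2 and siNeg libraries, with the dotted line at 1 FPKM. Of the 20 endothelial markers 7 pass that line in 1 or more libraries, and 0 of the 6 lymphatic markers do.

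The cells carried fibroblast markers throughout, and levels of markers of fibroblasts and of other cell types differed between groups. All 12 fibroblast markers were measured, with Col1a1 at 3275.54 FPKM in the knockout against 3233.43 in wild type and 2376.90 with siDyrk2 against 3207.77 with siNeg. In the knockout 9 of them were higher and 3 lower, with log2 differences of 0.98 for Dcn, 0.87 for Lum and -0.85 for Thy1. With siDyrk2 5 were higher and 7 lower, and Vim had a log2 difference of 0.59. Mural markers, of which 11 of 12 were measured, summed to 642.49 FPKM in the knockout against 939.08 in wild type, and to 1860.07 with siDyrk2 against 1106.30 with siNeg. Acta2 weighed most in these sums, at 322.19 FPKM in the knockout against 536.77 in wild type, and 1204.72 with siDyrk2 against 668.51 with siNeg. Tagln came next, and the sums are therefore no measure of mural cells. Of the measured mural markers 6 were lower and 5 higher in the knockout, where 55.6% of all genes were lower and 43.7% higher. With siDyrk2 11 were higher, where 54.3% of all genes were. On FPKM + 1, 1 mural marker, Mcam, was at least 2-fold lower in the knockout, where 1.21% of all genes were. With siDyrk2 0 were at least 2-fold higher, against 0.749% of all genes. Mcam was at 5.51 FPKM in the knockout against 13.13 in wild type, and at 15.56 with siDyrk2 against 13.33 with siNeg. Anpep had log2 differences of 0.89 in the knockout and 0.27 with siDyrk2, and Notch3 of -0.34 and 0.86. Macrophage and leukocyte markers, some of whose cells can also express Tek, summed to 554.41 FPKM in the knockout against 279.61 in wild type, and to 402.45 with siDyrk2 against 325.02 with siNeg, with 12 of 12 measured markers higher in the knockout and 11 of 12 with siDyrk2. Lyz2 weighed most in these sums, at 328.57 FPKM in the knockout against 152.06 in wild type, and 196.09 with siDyrk2 against 154.19 with siNeg. The sums are therefore no measure of macrophages or leukocytes. In the knockout 2 of these markers, Lyz2 and Ctss, were at least 2-fold higher on FPKM + 1, where 0.57% of all genes were. Between siNeg and wild type 12 of 12 measured markers were higher too, by a median log2 difference of 0.35. Of all genes 43.7% were higher in the knockout, 54.3% with siDyrk2 and 48.3% with siNeg against wild type. The part of these cell types in the levels of Sox18, Angpt1, Angpt4, Tek and Ptprb was not tested. In RNA from whole cultures, fewer cells of a type and less RNA per cell cannot be told apart.

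Genes with a pattern like that of Sox18 and Angpt4 were looked up among 10918 protein-coding genes by Euclidean distance of log2(FPKM + 1), centred on the mean of the 4 libraries. Nearest to Sox18 were Galnt3 (distance 0.193), Enc1 (0.28), Serpinb9b (0.289), Angpt4 itself (0.295), Icosl (0.313) and Mest (0.392). Galnt3, a glycosyltransferase gene, was at 0.11 FPKM in the knockout against 0.97 in wild type and at 0.07 with siDyrk2 against 1.79 with siNeg, so it too was nearly unseen with lowered Dyrk2 and higher in siNeg than in wild type. Nearest to Angpt4 were the serpin gene Serpinb9b (0.0379), the gene of the T cell costimulatory ligand Icosl (0.0561), the imprinted genes Nnat (0.229) and Mest (0.26), Mr1 (0.266) and Grb14 (0.266). Serpinb9b was at 1.64 FPKM in the knockout against 5.72 in wild type and at 1.99 with siDyrk2 against 6.53 with siNeg. Sox18 ranked at position 8 from Angpt4. Both genes were chosen for being low in the same libraries, so their closeness to each other was built in by that choice. The likeness rests on 4 values per gene, and genes with other levels can match because only differences from the mean enter.

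**Figure D5:**
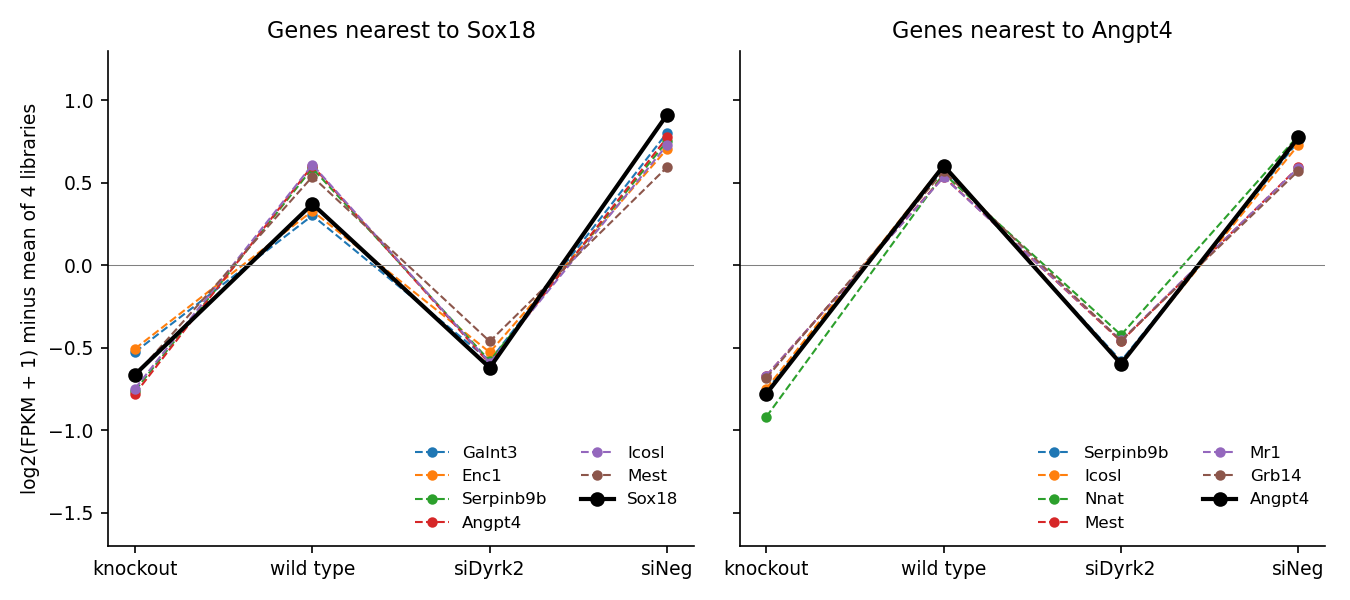
Log2(FPKM + 1) minus the mean of the 4 libraries in the knockout, wild-type, siDyrk2 and siNeg libraries, for Sox18 (left) and Angpt4 (right) as solid black lines and the 6 nearest protein-coding genes of each as dashed lines. All lines are low in the knockout and siDyrk2 libraries and high in wild type and siNeg. Sox18 is higher in siNeg than in wild type, as are Galnt3, Enc1 and, by less, the other genes of the left panel.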

How the data were processed

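RNA was column-purified with DNase treatment and made into stranded, polyA-selected libraries, per the labels' protocols. Trimming and alignment tools were cutadapt 1.9.1 and HISAT2 2.0.1 with the build GRCm38, per the submitters' processing notes. How fragments were counted, on which annotation and with which strand setting is not given in the sources used here. Each deposited value is an FPKM with 2 decimals, per the file headers, beside the authors' exonic length of each gene. Symbols came from GENCODE M21 (55394 of 55573 identifiers matched). Depth was the value at which all genes up to 200 bases (338 to 399 per library) held a whole number of fragments within rounding; 4 of 36 member values, all of Ptprb, could be more than 1 whole number.

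Levels have exact Poisson 95% intervals, and ratios of FPKM the Clopper-Pearson interval of a binomial share of both libraries' fragments, for counting error only. Log2 differences and the 2-fold rule use a pseudocount of 1 FPKM, which understates differences of low genes, and cover the 12817 genes that reached 1 FPKM in any library. A single library per group allows no test. The members and lists were chosen with earlier results of these data known. Named genes were the members, Hedgehog genes, up to 4 genes per list by size of ratio, neighbours and nearest patterns; the others, among them Ddx3y, Svep1, Col1a1, Gm29797, Cdh5, Clec14a, Erg, Fli1, Ramp2, Kdr, Pecam1 and Prox1, were picked after their values were seen. The depth search and the interval were tested on simulated data. Python 3.11.15 with scipy 1.17.1 was used. A planned protein comparison was not run, and promoter windows of 6 members were not used here.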

Additional observations from a re-analysis of the deposited data

Results flagged for a closer look

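Ptprb went in opposite directions in both comparisons of lowered Dyrk2, at a log2 difference of -0.09 in the knockout and 0.42 with siDyrk2 on FPKM + 1. With single libraries that difference between the comparisons was not tested, and the counting interval of the knockout ratio includes equal levels.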

How the results depend on the processing

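No paired analysis was possible because each group has 1 library. Over 21 member ratios and 105 alternative values 0 took the opposite sign at 2 decimals, though that of Tek in the knockout came to 0.00 with either scaling. Neither trimmed-mean (TMM) nor upper-quartile scaling moved any member ratio outside its counting interval. The pseudocount set the size. With 0.1, 0.5 and 5 FPKM the log2 difference of Sox18 was -3.22, -1.60 and -0.28 in the knockout and -3.76, -2.20 and -0.48 with siDyrk2. That of Angpt4 with 0.1 and 5 FPKM was -1.81 and -0.70 in the knockout and -1.73 and -0.73 with siDyrk2. With a pseudocount of 5 FPKM 0 members were 2-fold different in either comparison, and with a filter of 5 FPKM 1 was in each. Between siNeg and wild type a pseudocount of 0.1 FPKM made 1 member, Ptprb, 2-fold different.

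The share of all genes at least 2-fold different in either direction moved as well. With pseudocounts of 0.1, 0.5 and 5 FPKM it was 4.74%, 2.95% and 0.172% in the knockout, 3.95%, 2.48% and 0.257% with siDyrk2, and 2.65%, 1.47% and 0.0858% between controls. With no filter on low values it was 0.41%, 0.356% and 0.214% in the same order, and among protein-coding genes 1.01%, 0.773% and 0.153%. A filter of 5 FPKM gave 0.397% between controls. Counting error bears most on Sox18 and Sox7, with 1 or 2 fragments in a library, and on Sox17 and Tie1, with 0.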
